A study of Mus musculus with 10 samples.

Results

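Oxidative phosphorylation is run by 5 protein complexes of the inner mitochondrial membrane, and most of their subunits are encoded in the nucleus. The nuclear genes for these subunits were followed through chemical reprogramming of mouse fibroblasts towards extraembryonic endoderm (XEN)-like cells. Members were chosen by a rule on symbols that uses no measured value: every gene whose symbol begins with Nduf (followed by a, b, c, s or v and a number), Uqcr, Cox with a number from 4 to 8, or Atp5, together with *Sdha*, *Sdhb*, *Sdhc* and *Sdhd*. The rule gave 84 of the 23197 genes in the table. There were 37 for complex I (NADH dehydrogenase), 4 for complex II (succinate dehydrogenase), 8 for complex III (cytochrome bc1 complex), 18 for complex IV (cytochrome c oxidase) and 17 for complex V (ATP synthase).

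Complexes I and II feed electrons from NADH and succinate into the ubiquinone pool, complex III passes them to cytochrome c, and complex IV hands them to oxygen. The proton gradient built on the way drives complex V. Proliferating embryonic fibroblasts rely strongly on glycolysis, and a shift between glycolysis and respiration is a familiar feature of cells that change identity.

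The cells came from mouse embryonic fibroblasts of E13.5 ICR embryos, from which head, limbs and viscera had been taken off. Such cultures are known to hold more than fibroblasts. The d0 cells were collected before treatment, and all other cells had been exposed to C6FAE, a cocktail of CHIR99021, the TGF-β receptor inhibitor RepSox, Forskolin, AM580 and EPZ004777 in XEN reprogramming medium. Cells were picked by hand and sequenced singly on days 0, 1, 2, 3, 4, 5, 6, 8, 12 and 20. They are named here as in the table: d0, d1, d2, d3, d4, d5, d6p (day 6, with a letter p that the labels do not explain), d8, d12 and d20, and d8c and d12c for cells taken from colonies. The labels name no genetic change in them. The 10 samples of the series are batches of cells, and cell names do not show the batch, so all cells were read as 1 sample and no test between time points was possible.

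To show what stands upstream of genes whose levels are described below, the 120 bases before the start site of 7 members are printed here. They are the forward strand of each gene, 5′ to 3′, from RefSeq on GRCm38.p6. Capitals mark the letters GCGCATGC (the NRF1 motif, also read from the other strand as GCATGCGC) and CCGGAAGT (the GABPA motif). NRF1 and GABPA are transcription factors long known for driving nuclear respiratory genes. The first 5 were chosen because they hold a match, and the last 2 because they belong to the tissue-restricted genes that moved most and hold none. *Ndufa11* lies at chr17:56717642-56717761 (plus strand), *Sdhb* at chr4:140961151-140961270 (plus), *Uqcr11* at chr10:80406822-80406941 (minus), *Atp5k* at chr5:108434400-108434519 (minus), *Atp5g2* at chr15:102671048-102671167 (minus), *Cox6b2* at chr7:4753095-4753214 (minus) and *Cox7a1* at chr7:30184051-30184170 (plus).
*Ndufa11*: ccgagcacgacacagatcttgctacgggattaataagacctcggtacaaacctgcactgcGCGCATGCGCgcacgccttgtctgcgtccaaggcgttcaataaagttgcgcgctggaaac
*Sdhb*: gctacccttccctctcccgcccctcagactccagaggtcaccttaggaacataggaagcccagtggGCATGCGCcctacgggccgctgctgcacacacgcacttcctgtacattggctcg
*Uqcr11*: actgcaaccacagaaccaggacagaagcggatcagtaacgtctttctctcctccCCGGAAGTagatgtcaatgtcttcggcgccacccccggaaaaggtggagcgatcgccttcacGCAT
*Atp5k*: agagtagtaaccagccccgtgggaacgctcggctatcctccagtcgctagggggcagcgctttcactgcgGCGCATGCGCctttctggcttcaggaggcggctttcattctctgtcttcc
*Atp5g2*: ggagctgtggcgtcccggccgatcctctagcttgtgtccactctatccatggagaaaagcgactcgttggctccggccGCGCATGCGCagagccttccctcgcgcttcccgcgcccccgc
*Cox6b2*: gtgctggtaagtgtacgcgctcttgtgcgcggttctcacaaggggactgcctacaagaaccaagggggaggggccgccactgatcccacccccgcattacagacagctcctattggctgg
*Cox7a1*: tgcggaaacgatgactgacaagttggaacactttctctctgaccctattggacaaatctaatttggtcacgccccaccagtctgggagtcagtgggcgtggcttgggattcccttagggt
In *Ndufa11*, *Atp5k* and *Atp5g2* the NRF1 letters were matched on both strands at overlapping places, which makes GCGCATGCGC. In *Uqcr11* the final GCAT is the beginning of a match that runs across the start site.

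A promoter of 300 bases (250 before and 50 after the start) was given for 69 members. In these windows GCGCATGC was found on either strand in 10 members (14.5%), compared with 3.05% of all 27025 genes that have such a window. The YY1 motif AAGATGGC was found in 11 members (15.9%, compared with 3.19%), of which 7 belong to complex I and 4 to complex V. Most of these YY1 matches lay past the start site and not upstream, from 22 to 29 in *Ndufc1* to 38 to 45 in *Ndufb8*. The match in *Atp5f1* ran across the start (−3 to 4), and that in *Atp5j* lay before it (−88 to −81). CCGGAAGT was found in 5 (7.25%, compared with 4.31%), and the ERR motif TCAAGGTCA in *Atp5g3* and *Sdhd* (2.90%, compared with 0.466%). At least 1 of the 4 motifs was present in 27 of the 69 members (39.1%, compared with 10.4% of all genes). A match of letters is a description of the sequence and does not show that a factor was bound.

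Of 808 deposited cells, 670 had at least 4000 detected genes and were kept, between 20 (d8c) and 86 (d6p) per group, with a median of 510306 UMIs and a range of 17633 to 6004864. Median depth was 344196 UMIs at d0, 768565 at d12 and 195480 at d20. The share of spike-in (ERCC) RNA rose over time, from a median of 3.28% at d0 to 11.0% at d12 and 19.3% at d20. Levels below are UMIs per 1000000 UMIs of endogenous genes in a cell (CPM), averaged over the cells of a group. The labelled identities were checked with marker genes. The 6 fibroblast markers (*Col1a1*, *Col1a2*, *Thy1*, *Prrx1*, *Twist2*, *Osr1*) summed to a mean of 2728 CPM at d0, 7455 at d12 and 57.8 at d20. The 7 XEN markers (*Sox17*, *Sall4*, *Gata4*, *Gata6*, *Foxa2*, *Sox7*, *Dab2*) summed to 65.9, 156 and 1409 CPM. Macrophage markers summed to between 6.24 and 29.6 CPM over the time points, with *Adgre1* at 0 in d0, d8, d12 and d20, and endothelial markers to between 2.14 and 36.7 CPM, the highest at d12, where *Kdr* alone had 36.2 CPM. The 8 striated muscle markers had means of 648 CPM at d0, 37.0 at d8, 46.8 at d12 and 30.4 at d20, but medians of 7.44, 2.10, 15.4 and 0, with 44506 CPM in the highest d0 cell. From d0 to each of the 3 other times all 6 of these markers past 10 CPM were lower, and their part in the members' differences was not tested.

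Among the 12 time points and colony groups, the mean summed level of the members was lowest in d12 and d0 cells and highest in d20 cells. At d0 they took 4.29% of all UMIs, with a mean of 42865 CPM and cells from 30555 to 59277 around a median of 41532. The mean was 43447 CPM at d1, 47091 at d2, 46169 at d3, 50289 at d4, 49478 at d5, 50611 at d6p and 51377 at d8. At d12 it was 42390 CPM, with cells from 28791 to 70776 around a median of 41487, and at d20 63353 CPM, with cells from 34143 to 98112 around a median of 61401. The d20 cells thus overlapped the d0 cells in range, but 37 of 38 lay above the d0 median and 23 above the highest d0 cell. Of 67 d12 cells, 33 lay above the d0 median. Colony cells had 51622 CPM at d8c and 60460 at d12c, where the range was widest, from 29771 to 112107.

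These means rest on 1666000 UMIs of members at d0 (exact Poisson interval 1663471 to 1668532) and 549879 at d20 (548427 to 551334), so counting error is far smaller than the spread between cells. The intervals cover counting error only. Single cells weighed on some means. At d5, cell number 10 reached 130643 CPM and the next highest 58439, and the d5 mean was 47159 CPM without it.

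The log2 ratio of the summed level was 0.26 for d8 against d0, −0.02 for d12 against d0, 0.56 for d20 against d0 and 0.58 for d20 against d12. These ratios depend on the scale. With TMM factors in place of total UMIs they were 0.20, 0.17, 0.30 and 0.14, so the d12 ratio changed sign. The median log2 difference of all genes past the level minimum moved as well, for d20 against d0 from 0.20 to −0.09 and for d20 against d12 from 0.34 to −0.16. With total UMIs, TMM factors, size factors and spike-in scaling alike, the members' own median lay above that of all genes. Each scaling applies a single factor per time point to every gene, so this agreement was nearly fixed in advance. Only the level minimum, the pseudocount of 1 CPM and, for the spike-in, the pooling of UMIs could change the distance. It was 0.33 to 0.38 for d20 against d0 and 0.37 to 0.49 for d20 against d12. For d8 and d12 against d0 it was 0.07 to 0.15 and 0.02 to 0.04. Other choices of cells gave 0.31 (all deposited cells), 0.31 (at least 6000 genes) and 0.22 (100000 to 300000 UMIs) for d20 against d0. For d20 against d12 they gave 0.24, 0.26 and 0.19.

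Set against the spike-in RNA, the members fell from 1.32 UMIs per ERCC UMI at d0 to 0.832 at d8, 0.326 at d12 and 0.285 at d20, the d0 value being 4.64 times the d20 value. All endogenous RNA fell in the same way, from 31.9 to 4.56 UMIs per ERCC UMI. Smaller RNA content of the cells and a larger amount of added spike-in cannot be told apart here. Every level and difference below is therefore a share of a cell's own RNA.

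Complex III rose most between d0 and d20. Its 8 genes summed to 4909 CPM at d0 (cells 2985 to 10081, median 4836), 6392 at d8, 5168 at d12 and 9201 at d20 (cells 4932 to 13971, median 9170), 1.87 times the d0 level. All 38 d20 cells lay above the d0 median, and 41 of 72 d0 cells lay below the lowest d20 cell. Complex IV followed with 10934 CPM at d0 (cells 7587 to 16897), 13471 at d8, 12217 at d12 and 18296 at d20 (cells 10186 to 37337), a ratio of 1.67, and 22 of the 38 d20 cells exceeded every d0 cell. For complex V the means were 10716 CPM at d0, 11697 at d8, 10205 at d12 and 14990 at d20 (1.40 times the level at d0).

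Complexes I and II moved less from d0 to d20, by 1.28 and 1.22 times, and the course of complex I had another shape. Its 37 genes summed to 15193 CPM at d0, dipped to 13545 at d1 and 13995 at d3, reached 19208 at d6p and 18685 at d8, lay at 13974 at d12 and at 19509 at d20. Complex II, the smallest, had 1113 CPM at d0, 811 at d3, 1132 at d8, 825 at d12 and 1357 at d20. The log2 ratios of d20 to d0 were 0.91 for complex III, 0.74 for IV, 0.48 for V, 0.36 for I and 0.29 for II. With TMM factors they were 0.65, 0.48, 0.22, 0.10 and 0.03. These factors shift all complexes of a time point alike, so they could not change the order. From d0 to d12 complexes I and V had ratios of −0.12 and −0.07, which became 0.06 and 0.11 with TMM factors, while complex II was lower under both, at −0.43 and −0.25.

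**Figure D1:**
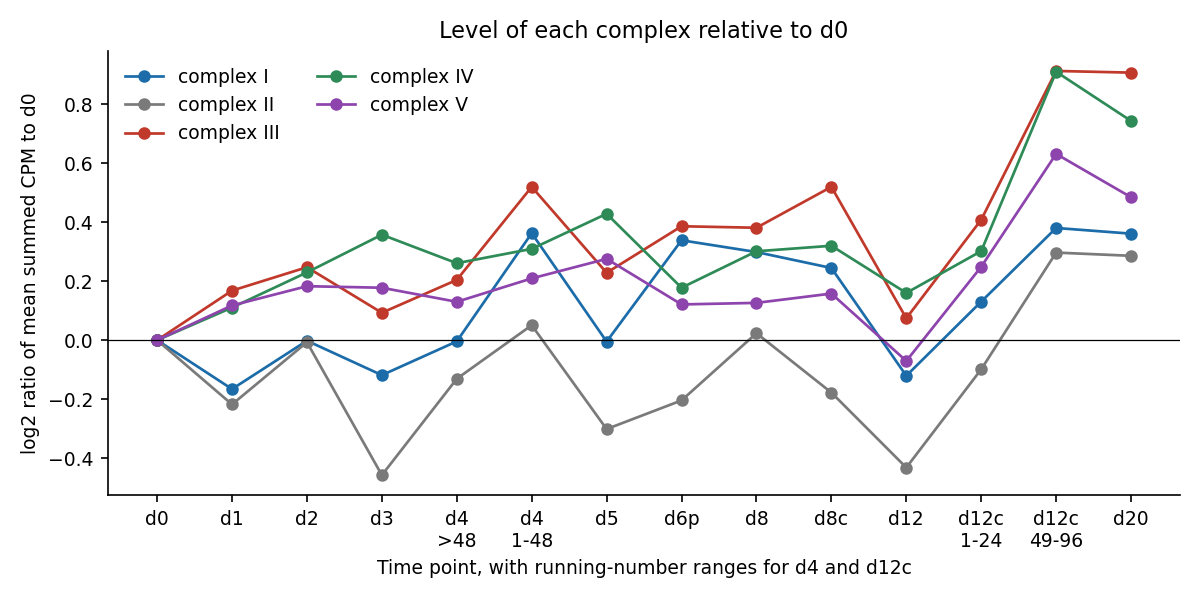
Log2 ratio of the mean summed CPM of each complex (coloured lines) to its d0 value (vertical axis) over the time points (horizontal axis), with d4 and d12c each drawn as their 2 ranges of cell numbers. Complexes III and IV end highest, at 0.91 and 0.74 on d20, and complex II has its lowest values at d3 (−0.46) and d12 (−0.43).

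The makeup of the sum shifted with these courses. Complex I genes contributed 35.4% of the member UMIs at d0, 38.0% at d6p and 30.8% at d20. Complex III went from 11.5% to 14.5%, and complex IV from 25.5% to 28.9%. *Ndufa4* is now counted among complex IV subunits, and moving it and *Ndufa4l2* from complex I to complex IV gave d20 to d0 ratios of 1.26 and 1.68 for these complexes.

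Single members were then compared. A member was called higher or lower when its mean CPM plus 1 differed at least 1.5-fold and it reached 10 mean CPM in either group. The same rule was applied to all genes. With 1 sample per group no test was made, and the counts are to be read against the shares of all genes.

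Between d0 and d8, 12 of 75 members past the minimum were higher (16.0%, where 29% of all genes were) and 1 was lower (25.5% of all genes were). The members' median log2 difference was 0.09, beside 0.02 for all genes. Thus fewer members than genes in general were past the fold in either direction. The largest rises were in *Cox6b2*, the testis isoform of a complex IV subunit (234 CPM at d8 and 35.7 at d0, log2 difference 2.68), *Ndufv3*, an accessory subunit of the NADH-oxidising module of complex I (748 and 239 CPM, 1.64), *Uqcr10*, a small subunit of complex III (1808 and 750, 1.27), *Atp5s*, a factor associated with ATP synthase (26.0 and 10.8, 1.20), and *Ndufa1*, a small membrane-arm subunit of complex I (1196 and 533, 1.16). *Uqcrc2*, a core protein of complex III, was the member called lower (110 and 188 CPM, −0.76). The next largest falls missed the fold: *Cox5a* had −0.45, *Ndufa9* −0.41, *Ndufb6* −0.35 and *Atp5b* −0.33.

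The rise of *Ndufv3* showed in its whole distribution. Its d0 cells ranged from 19.8 to 845 CPM around a median of 223, its d6p cells from 54.1 to 4992 around 837 and its d8 cells from 131 to 1686 around 728. At d20 the median was 313 CPM, with cells from 0 to 994, and the mean of 358 CPM lay just under the fold against d0 (0.58). Other small complex I subunits had their highest mean at d6p or d8 and lower means later. *Ndufa1* had 1145 CPM at d6p, 1196 at d8 and 679 at d20, *Ndufa13* had 745 at d0, 1308 at d6p and 850 at d20, and *Ndufc1* had 776, 1269 and 803. Of the 6 complex I members called higher at d8, only *Ndufa3* was also called higher at d20.

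At d12, when cells not taken from colonies still had 7455 CPM of fibroblast markers, 10 of 77 members were higher than at d0 (13.0%, beside 26.5% of all genes) and 10 lower (13.0%, beside 32.5%). With TMM factors the counts were 12 higher (15.6%, beside 31.4% of all genes) and 4 lower (5.19%, beside 25.6%). The median was −0.12 on the log2 scale, and −0.16 for all genes. The 5 largest rises were *Cox7a1* (39.4 CPM at d12 and 1.26 at d0, 4.16), *Cox4i2* (14.7 and 1.32, 2.76), *Cox6b2* (240 and 35.7, 2.71), *Ndufv3* (424 and 239, 0.82) and *Atp5d*, the delta subunit of the ATP synthase head (690 and 395, 0.80). The first 3 of these are isoforms of restricted tissue range. The largest falls were *Uqcrc2* (99.0 CPM, −0.92), *Ndufa12*, an accessory subunit of the peripheral arm (183 and 343 CPM, −0.90), *Sdhb*, the iron-sulfur subunit of succinate dehydrogenase (370 and 643, −0.80), *Ndufa9* (119 and 205, −0.78) and *Ndufb6* (532 and 885, −0.73). Also lower were *Atp5g1*, *Ndufb8*, *Ndufs8*, *Cox5a* and *Ndufa5*.

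*Sdhb* in single cells ranged from 151 to 1618 CPM around a median of 541 at d0, from 6.18 to 619 around 316 at d3 and from 52.3 to 1675 around 328 at d12. The ranges overlapped almost fully at d12, and the shift lay in the middle of the distribution. Its partner *Sdhc*, a membrane anchor of the same complex, went the other way, from 51.6 CPM at d0 to 86.7 at d12.

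At d20, 34 of 76 members were higher than at d0 (44.7%, beside 34.9% of all genes) and none was lower, where 25% of all genes were lower. The median was 0.55 on the log2 scale, beside 0.20 for all genes. By complex, the higher members were 6 of 8 in complex III, 9 of 12 in complex IV, 6 of 17 in complex V, 11 of 35 in complex I and 2 of 4 in complex II. With TMM factors 19 were higher (25%, beside 25.8% of all genes) and 2 lower (2.63%, beside 32.4%), and with size factors 26 (34.2%, beside 29.1%) and none. The members' share of higher calls thus stood above that of all genes with total UMIs and size factors but not with TMM factors, and their share of lower calls stood below it with all of them. At a minimum of 100 CPM, 33 of 73 were higher (45.2%, beside 29.4% of all genes) and none was lower (beside 20.6%).

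In complex III, *Uqcr11*, a small subunit, rose from 806 to 2033 CPM (log2 difference 1.33). Its cells ranged from 207 to 3268 CPM around a median of 690 at d0 and from 621 to 3653 around 1874 at d20. *Uqcrh*, the hinge protein by which the complex meets cytochrome c, rose from 490 to 1173 CPM (1.26), with cell medians of 460 and 1099. The core protein *Uqcrc1* rose from 608 to 1204 (0.98), and no d20 cell was below 492 CPM, where d0 cells went down to 106. *Uqcrfs1*, the Rieske iron-sulfur protein that carries electrons, rose from 220 to 456 (1.04), and *Uqcrc2* from 188 to 297 (0.66). The 2 members of this complex that did not pass the fold were *Uqcrb* (0.18) and *Uqcrq* (0.47).

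In complex IV, the body-wide isoforms rose side by side. *Cox4i1*, the common form of the largest nuclear subunit, went from 1514 to 2449 CPM (0.69), *Cox6a1* from 1021 to 2033 (0.99), *Cox6b1* from 1392 to 2514 (0.85), *Cox7a2* from 964 to 1490 (0.63), *Cox7b* from 574 to 1291 (1.17) and *Cox8a* from 887 to 1872 (1.08). The ranges overlapped for each of them. *Cox8a*, for example, spanned 102 to 2100 CPM at d0 and 696 to 5046 at d20, with medians of 881 and 1632. *Cox7a2l*, which encodes a factor that holds complexes III and IV together in supercomplexes, rose from 273 to 550 (1.01). The core-proximal subunit *Cox5a* had 822 and 982 CPM (0.26).

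In complex I, several members that hold flavin or iron-sulfur centres were among those higher at d20. *Ndufs1*, the largest iron-sulfur subunit, rose from 53.7 to 123 CPM (1.18), *Ndufv1*, which binds the flavin that accepts electrons from NADH, from 119 to 217 (0.86), *Ndufv2* from 327 to 566 (0.79) and *Ndufs7* from 255 to 531 (1.06). *Ndufs8*, which also carries iron-sulfur centres, had 284 and 326 CPM and did not pass the fold (0.20). *Ndufs6*, an accessory subunit of the peripheral arm, rose from 399 to 871 CPM (1.12), and its lowest d20 cell had 230 CPM where d0 cells went down to 47.0. Also higher were *Ndufa3*, *Ndufa4*, *Ndufb5*, *Ndufb9* and *Ndufc2*. The 5 members with the largest falls were all of complex I and within the fold: *Ndufb10* (404 and 300 CPM, −0.43), *Ndufb6* (−0.33), *Ndufa11* (−0.32), *Ndufa8* (−0.29) and *Ndufb11* (−0.21).

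In complex V, the alpha and beta subunits that form the catalytic head rose, *Atp5a1* from 550 to 1014 CPM (0.88) and *Atp5b* from 914 to 1381 (0.60), as did the central stalk subunits *Atp5c1* (454 to 768, 0.76) and *Atp5d* (395 to 729, 0.88). The peripheral stalk member *Atp5j* rose from 1338 to 2286 (0.77), while *Atp5o*, the link between stalk and head, had 1218 and 1302 CPM (0.10) and the membrane subunit *Atp5l* 1086 and 1239 (0.19). *Atp5sl*, matched by the rule but known as an assembly factor, rose from 5.34 to 15.1 CPM (1.35). It had a UMI in 25 of 72 d0 cells and 14 of 38 d20 cells. In complex II, *Sdha*, the flavoprotein, rose from 125 to 191 CPM (0.60) and *Sdhd*, a membrane anchor, from 294 to 518 (0.81).

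With total UMIs the difference was wider from d12 to d20 than from d0 to d20. The order turned with the scaling, since the log2 ratios of the sum were 0.14 and 0.30 with TMM factors and 0.26 and 0.41 with size factors. With total UMIs 43 of 78 members were higher (55.1%, beside 42.8% of all genes) and 3 lower (3.85%, beside 27.9%), and the medians were 0.71 and 0.34. With TMM factors 14 were higher (17.9%, beside 28.9% of all genes) and 7 lower (8.97%, beside 37.9%). With size factors 20 were higher (25.6%, beside 32.5%) and 5 lower (6.41%, beside 34.9%). The members' share of higher calls thus stood above that of all genes with total UMIs but below it with TMM and size factors. At 100 CPM or more, 42 of 73 were higher (57.5%, beside 41.1%) and none lower (beside 27%). The largest rises were *Atp5sl* (4.25 to 15.1 CPM, 1.62), *Uqcrc2* (99.0 to 297, 1.57), *Ndufs1* (42.2 to 123, 1.52), *Uqcrc1* (485 to 1204, 1.31) and *Ndufc2* (263 to 639, 1.28). In complex III 7 of 8 members were higher and in complex I 20 of 35. *Uqcrc1* cells ranged from 33.8 to 1284 CPM around 437 at d12 and from 492 to 2709 around 1171 at d20. The lower members were *Cox7a1*, *Cox4i2* and *Sdhc* (86.7 to 51.9 CPM, −0.73), and *Ndufa1* (−0.38) and *Cox6b2* (−0.30) were within the fold. Fibroblast markers fell from 7455 to 57.8 CPM and XEN markers rose from 156 to 1409 between the same groups. The part of these identity changes, of the lower depth and of the higher spike-in share of d20 cells in the members' differences was not tested. Within cells of 100000 to 300000 UMIs (23 d20, 22 d0 and 9 d12 cells) the log2 ratios of the sum were 0.51 for both d20 against d0 and d20 against d12. The medians of all genes there were 0.24 and 0.41. The sum thus lay 0.27 and 0.098 above them, beside 0.36 and 0.24 over all kept cells.

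**Figure D2:**
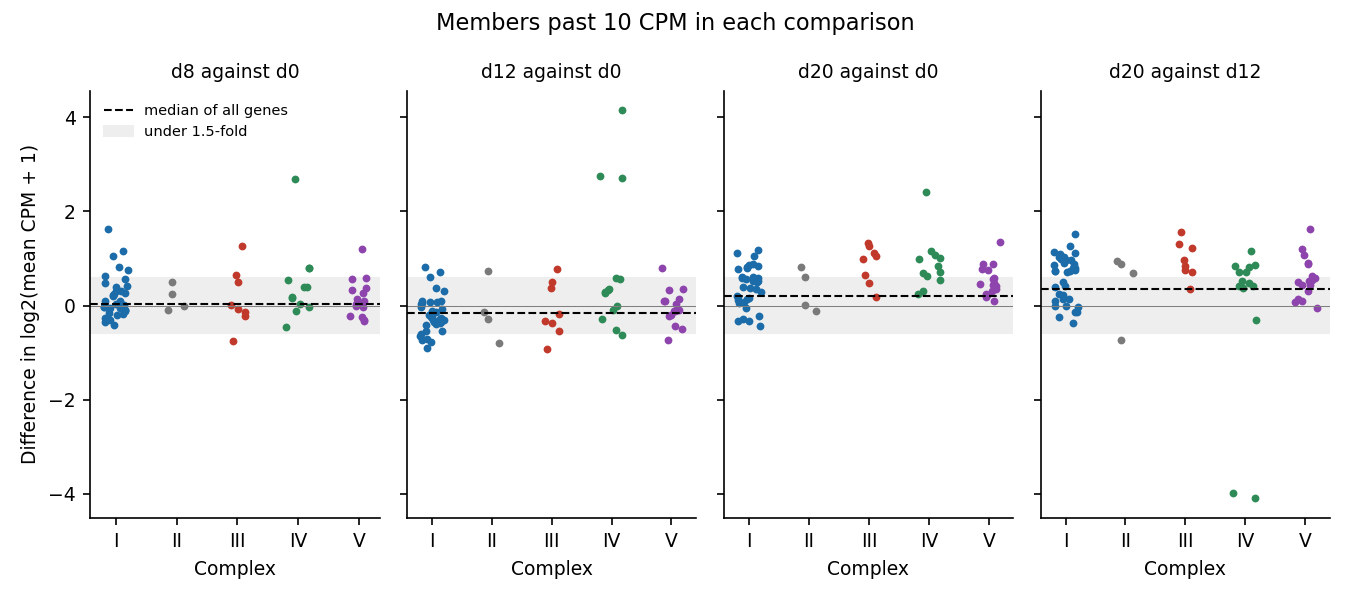
Difference in log2 of mean CPM plus 1 (vertical axis) of each member past the level minimum (points), by complex (horizontal axis), in each of the 4 comparisons (panels), with differences under 1.5-fold shaded and the median of all genes as a dashed line. For d20 against d0 no member lies below the shaded band and 34 lie above it.

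**Figure D3:**
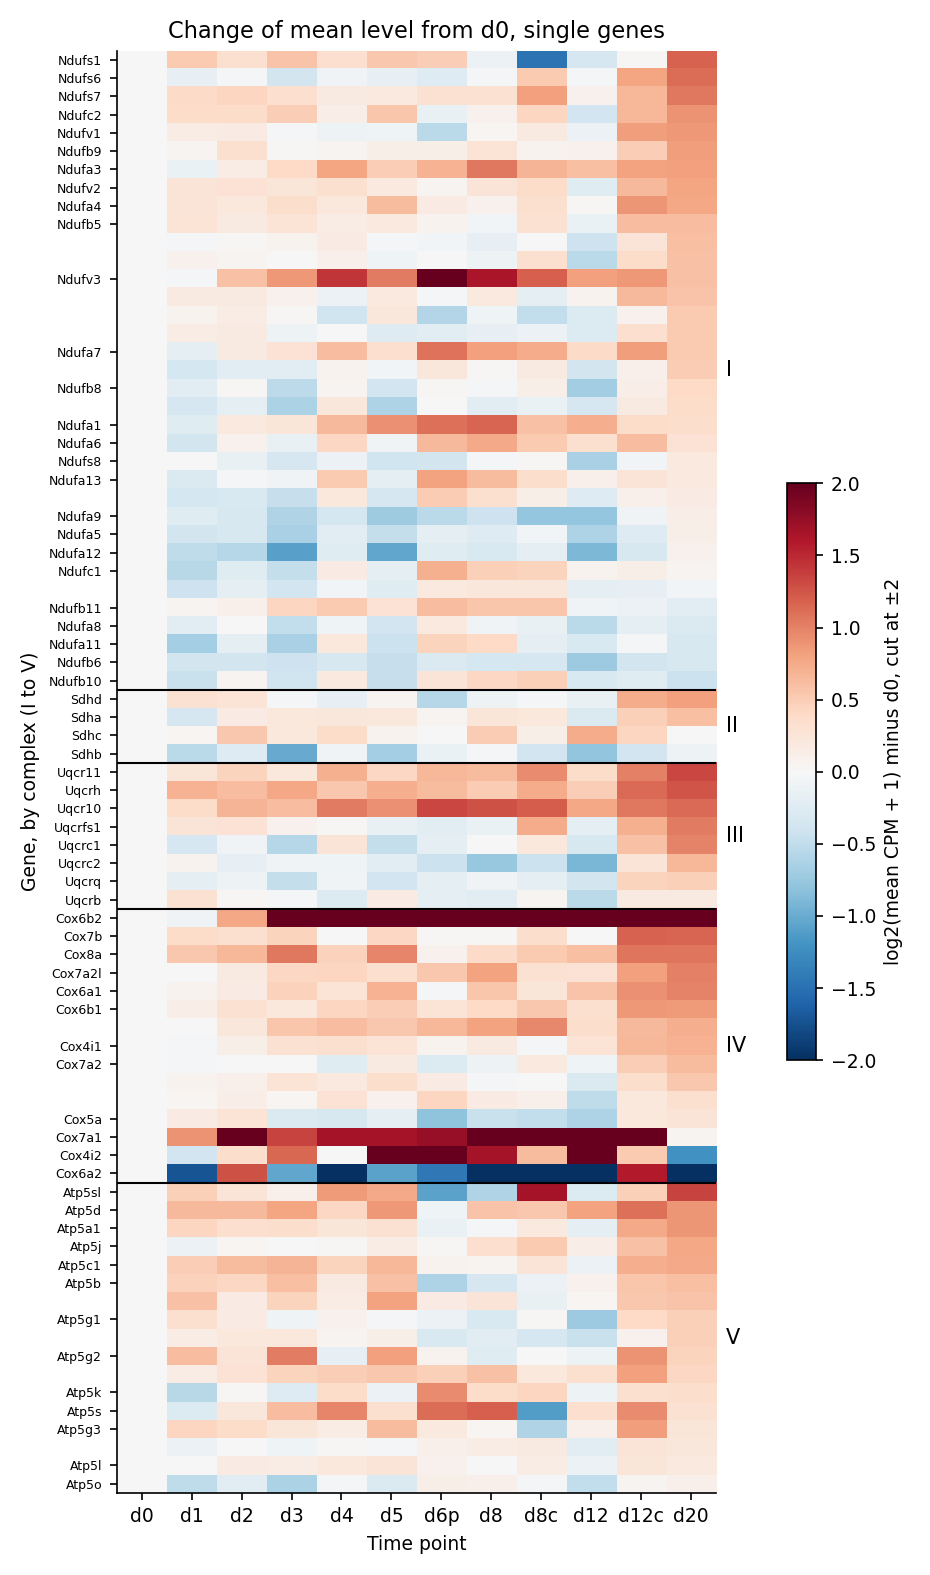
Log2 of mean CPM plus 1 relative to d0 (colour, cut at 2 in either direction) over the time points (horizontal axis) for the 79 members that reached 10 mean CPM in any group (rows, by complex and then by the d20 value, with the members named in the text labelled). All 8 complex III members are above d0 at d20, as are the complex IV members other than *Cox4i2* and *Cox6a2*, and the complex I members *Ndufv3* and *Ndufa1* have their highest values at d6p and d8. For *Cox7a1* the d20 mean (1.36 CPM, beside 1.26 at d0) comes from 1 cell.

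Within d12c, 2 ranges of cell numbers stood apart, 21 cells numbered 1 to 24 and 30 cells numbered 49 to 96. The labels do not say what the numbers mean. The first range had 383 CPM of XEN markers and 3237 of fibroblast markers, the other 1151 and 56.4. Striated muscle markers had means of 3420 and 8.90 CPM (medians 32.6 and 0). The members' sum was 50394 CPM in the first range (median 43325) and 67506 in the other (median 68643), so that 27 of 30 cells numbered 49 to 96 lay above the median of the first range. Here 30 of 78 members were higher (beside 32.5% of all genes) and 2 lower (beside 32%). The log2 ratios to d0 in the range of 49 to 96 were 0.91 for complexes III and IV, 0.63 for V, 0.38 for I and 0.30 for II, close to those of d20. In the range of 1 to 24 they were 0.41, 0.30, 0.25, 0.13 and −0.10. Over all 51 d12c cells the members' sum had a Spearman correlation of 0.37 with the XEN marker sum and −0.51 with the fibroblast sum. Within the ranges the correlations with XEN markers were −0.03 and 0.01, so the overall XEN value followed the difference between ranges. With fibroblast markers they were −0.39 in the range of 1 to 24 and −0.08 in the range of 49 to 96. Median depth was 416789 and 276240 UMIs. The ranges differed in depth, whether they came from separate libraries is not given, and the values are descriptions.

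At d4 a similar split was present, between 40 cells numbered 1 to 48 and 37 with higher numbers. Of 77 members, 13 were higher in the range of 1 to 48 (16.9%, close to the 15.7% of all genes) and 3 lower (3.90%, beside 27.4%). Complex I differed most, with 19531 and 15149 CPM, 34 of 40 cells lying above the median of the other range, whereas complex IV had 13548 and 13100. Of the 13, 8 belong to complex I: *Ndufb11*, *Ndufa13*, *Ndufa11*, *Ndufa7*, *Ndufa6*, *Ndufa1*, *Ndufc1* and *Ndufv3*. The cells numbered 1 to 48 also had more fibroblast marker RNA (4466 and 1641 CPM) and more UMIs (medians of 778218 and 322066).

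Days 1, 3 and 5 differed from their neighbours in a way that time alone does not order. All kept cells of d1, d3 and d5 were numbered 1 to 48, while d0, d2, d4, d6p and d8 also had cells numbered above 48. Odd and even days thus differed in number range as well as in day. The member counts here are over all kept cells, and the part of the number range in them was not tested. In 15 of 79 members (19.0%) the means of d1, d3 and d5 were all lower than those of d0, d2, d4, d6p and d8, which held for 3.46% of all genes, and in 9 (11.4%) they were all higher, which held for 3.19%. *Ndufa11* had 429 to 509 CPM on the odd days and 598 to 938 on the even ones, *Ndufb10* 293 to 308 and 404 to 536, *Sdhb* 320 to 444 and 537 to 643, and *Atp5k*, a membrane subunit of ATP synthase, 619 to 836 and 907 to 1740. The opposite held for *Atp5g2* (337 to 450 and 186 to 262), *Uqcrh* (798 to 839 and 490 to 757) and *Cox7b* (737 to 785 and 568 to 718). Ribosomal protein genes also took more of the RNA on odd days, 130078 to 160714 CPM compared with 96600 to 126258 over all kept cells. In cells numbered 1 to 48 alone this did not hold for every day. There d2 had 136874 CPM, above the 130078 of d5, while d0, d4, d6p and d8 had 95635 to 120922. Whether these cells were made in separate libraries is not given, and the part of such a batch in the pattern was not tested.

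Complex IV has subunits with paralogs of narrow tissue range, and these gave the steepest changes. *Cox6b2* (ENSMUSG00000051811, chr7:4703396-4704696 on NCBIM37, minus strand) replaces *Cox6b1* in testis. Its mean was 35.7 CPM at d0, 33.9 at d1, 62.0 at d2 and 281 at d3, and then stayed between 185 and 279 CPM to d12, colony cells included, with 195 at d20. At d0 cells ranged from 0 to 505 CPM with a median of 6.78, at d3 from 0 to 1090 with 197. After thinning every cell to 50000 UMIs it was found in 39.4% of d0 cells, 67.1% at d2, 91.9% at d3, 93.9% at d12 and 80.6% at d20. *Cox6b1* was present throughout, with 1392 CPM at d0 and 1617 at d3. At d3 the fibroblast markers summed to 2023 CPM and the XEN markers to 53.8, beside 2728 and 65.9 at d0.

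*Cox7a1* (ENSMUSG00000074218, chr7:30969190-30971047 on NCBIM37, plus strand) is the form used by heart and skeletal muscle. It had a UMI in 299 of the 670 kept cells, among them 54 of 67 d12 cells, but was high in few. Its mean was 1.26 CPM at d0, 9.50 at d8, 81.4 at d8c, 39.4 at d12, 47.2 at d12c and 1.36 at d20. Without the highest cell of each group these were 0.789, 4.89, 33.3, 29.4 and 26.3 CPM and, at d20, 0, since all 3 UMIs there came from 1 cell. It reached 100 CPM in 22 cells, of which 8 were d12, 5 d12c, 3 d8c, 2 d8 and 1 each d2, d4, d5 and d6p. The 8 striated muscle markers in those cells had a median of only 12.8 CPM and did not exceed 188, so *Cox7a1* appeared there without the muscle genes.

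*Cox6a2* and *Cox8b*, likewise forms of striated muscle, behaved differently. *Cox6a2* reached 100 CPM in 3 cells, 249 CPM in a d0 cell, 836 in a d2 cell and 649 in a d12c cell, and these had 44506, 19408 and 70582 CPM of muscle markers such as *Acta1* and *Actc1*, where 632 cells without any *Cox6a2* UMI had a median of 4.02. *Cox8b* reached 100 CPM only in the same d0 cell (330 CPM). The d12c cell is number 14, within the range of 1 to 24, where the mean of *Cox6a2* was 31.6 CPM with it and 0.704 without it, beside 0 in the range of 49 to 96.

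*Cox4i2*, the isoform of lung and of low oxygen, had 1.32 CPM at d0, 23.1 at d5 (15.1 without the highest cell), 11.7 at d6p, 14.7 at d12 and 2.33 at d12c. It was found in 49 of 67 d12 cells (73.1%, exact Clopper-Pearson interval 60.9 to 83.2%) and in 0 of 38 d20 cells, where 3 of 38 cells with a UMI would be 7.89%. This is a limit on cells with a UMI and not on cells that express the gene, and d20 cells had the lowest depth. After thinning to 50000 UMIs it was found in 33.3% of d12 cells and again in no d20 cell. *Ndufa4l2*, a paralog of *Ndufa4* induced by low oxygen, stayed below 10 CPM in every group, with its highest mean, 5.66 CPM, at d8. It was listed in 17 of 62 d8 cells and no d20 cell. *Cox7b2* had UMIs in 9 cells, and *Ndufs5* and *Cox8c* were listed at 0 in all. *Ndufs5* is a general complex I subunit, and its value of 0 says nothing about its expression.

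**Figure D4:**
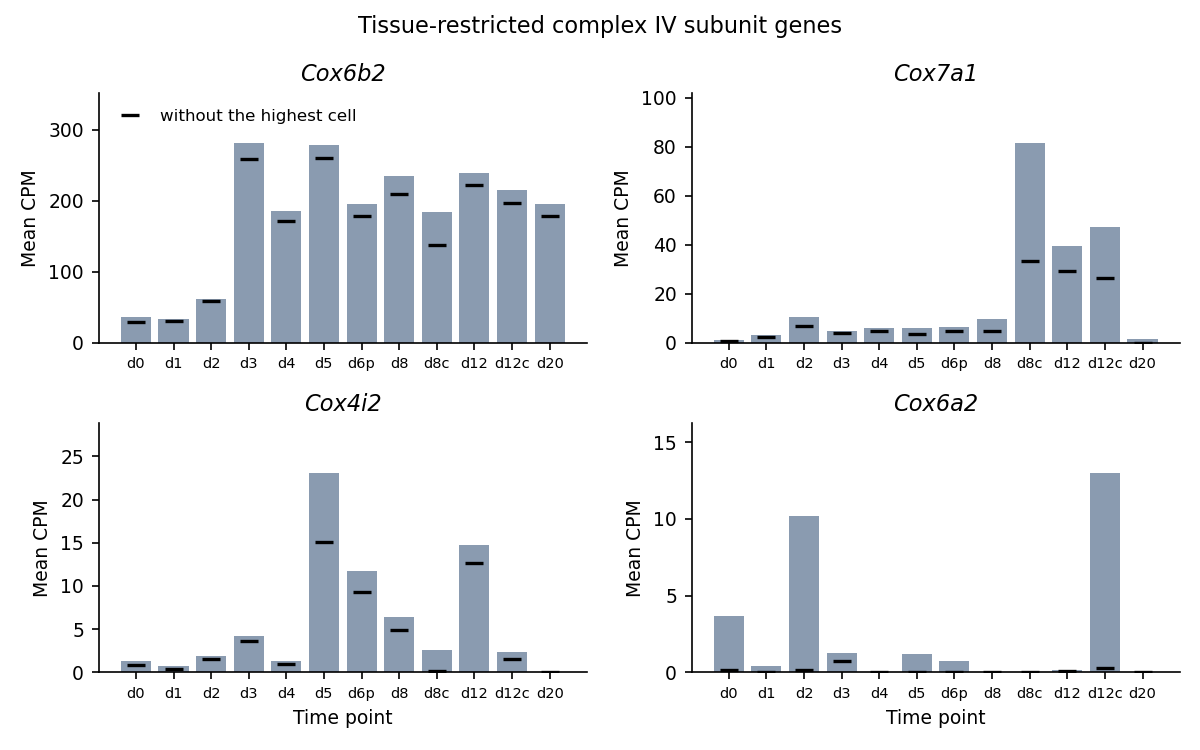
Mean CPM (vertical axes, each with its own scale, from 0) of 4 tissue-restricted complex IV genes over the time points, where bars are the means of all kept cells and black lines the means without the highest cell. *Cox6b2* steps up from 62.0 to 281 CPM between d2 and d3, *Cox7a1* and *Cox4i2* end at or near 0 at d20, and the *Cox6a2* bars at d0, d2 and d12c fall to near 0 without 1 cell each.

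ATP synthase has 3 genes for its c subunit, which encode the same mature peptide and differ in their leader. *Atp5g1* had 803 CPM at d0, 487 at d12 and 1116 at d20. *Atp5g2* had 220, 204 and 298 CPM, with its highest means at d3 (450) and, within d12c, in cells numbered 49 to 96 (554), and *Atp5g3* had 248, 265 and 293. For *Atp5g1*, d12 cells ranged from 50.8 to 1358 CPM around 459 and d20 cells from 108 to 2270 around 1019. These genes and many other members have near-identical copies elsewhere in the genome, so their counts are uncertain where reads could be split.

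From cell to cell, most pairs of complexes varied together within a time point. The median of the 10 pairwise Spearman correlations between summed levels was 0.51 at d0 (72 cells), 0.38 at d6p (86 cells), 0.78 at d20 (38 cells) and 0.87 at d12c (51 cells). Complexes I and III gave the highest pair at d0, d1, d2, d4, d6p, d8 and d12, and complex II, with few UMIs, was in the lowest pair of each time point. That lowest pair had −0.03 at d6p, 0.09 at d2, 0.10 at d1 and 0.11 at d5, and 0.22 to 0.73 in the other groups. Within a cell all sums share the total to which CPM are scaled, and which cells share a library is not given. Correlation of the members' sum with total UMIs lay between −0.33 at d12c and 0.45 at d5. With the sum of mitochondrial ribosome genes it was positive at every time point, from 0.36 at d2 to 0.72 at d12c, whereas with cytosolic ribosome genes it lay between −0.34 and 0.27. The d12c correlations here are over both ranges of cell numbers, so they include the difference in level between the ranges. They were not computed within each range.

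The wider mitochondrial programme was read from lists chosen by function. The share of all genes that were higher or lower was 29% or 25.5% at d8 against d0, 26.5% or 32.5% at d12 against d0, 34.9% or 25% at d20 against d0 and 42.8% or 27.9% at d20 against d12. The list counts below are in the same order of comparisons and are to be read against these shares. Of 77 mitochondrial ribosome genes past the minimum, 5 were higher and 27 lower at d8 than at d0, 1 higher and 46 lower at d12, and 29 higher and 5 lower at d20. From d12 to d20, 57 of 77 were higher and 1 lower, and their summed level went from 8130 to 15610 CPM. Of the members, 10 of 77 were lower at d12 than at d0. The largest moves from d12 to d20 were *Mrpl15* (59.8 to 364 CPM), *Mrpl16* (6.46 to 42.3) and *Mrps27* (19.8 to 81.3). Of genes with cytosolic ribosome symbols, 1 of 83 was higher and 23 lower at d8, 5 and 8 of 83 at d12, 7 and 6 of 85 at d20 against d0, and 16 and 4 of 85 from d12 to d20, where the higher share stood below that of all genes. The largest moves there were outside the common ribosomal proteins: *Rpl39l*, a testis paralog, had 55.7 CPM at d12 and 0 at d20, *Rps4l* 83.8 and 8.19, and *Rps6ka6*, a kinase caught by its symbol, 6.21 and 74.0.

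Among 9 respiratory chain genes that the symbol rule misses, 1 was higher and 4 lower at d8, none higher and 5 lower at d12, and 2 higher and 1 lower at d20 than at d0, while 6 were higher and none lower at d20 than at d12. Their sum at d8 was 0.76 times that at d0, where the sum of the members was 1.20 times its d0 level. *Cyc1*, the cytochrome c1 subunit of complex III, had 422 CPM at d0, 315 at d12 and 689 at d20, and *Cycs*, cytochrome c itself, 1602, 960 and 1907. *Etfa*, which delivers electrons from fatty acid oxidation, had 248, 92.1 and 288, and *Ndufab1*, the acyl carrier subunit of complex I, 203, 131 and 307. The ADP/ATP carrier *Slc25a5* had 967 CPM at d0, 315 at d8 and 633 at d20. Of the assembly factors past the minimum, 4 of 20 were higher and 3 lower at d8, 1 of 21 higher and 12 lower at d12, 10 of 24 higher and 5 lower at d20 against d0, and 16 of 25 higher and 1 lower from d12 to d20. The largest differences from d12 to d20 were *Atpaf1*, needed to build the ATP synthase head (11.1 to 87.7 CPM, 2.87), *Taco1*, a translation activator for a mitochondrial complex IV subunit (4.59 to 22.9, 2.09), and *Foxred1*, a complex I assembly factor (6.63 to 26.9, 1.87).

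Of the 16 genes of the citric acid cycle, which supplies the chain with NADH and succinate, 3 were higher and 1 lower at d8, 2 higher and 4 lower at d12, 7 higher and 1 lower at d20 against d0, and 8 higher and 2 lower from d12 to d20, where the higher share was near that of all genes. From d12 to d20 *Suclg1*, a subunit of succinyl-CoA ligase, rose from 112 to 350 CPM (1.64), *Pdhb*, of pyruvate dehydrogenase, from 88.0 to 190 (1.11), and *Idh3a*, of NAD-dependent isocitrate dehydrogenase, from 93.0 to 198 (1.08). *Ogdh* fell from 90.8 to 49.1 (−0.87). The regulators were at low levels. *Ppargc1a*, a coactivator of mitochondrial biogenesis, had 0.778 CPM at d0, 5.67 at d12 and 12.3 at d20, *Tfam*, which binds and packages mitochondrial DNA, 41.4, 24.4 and 68.4, and *Nrf1* 30.7, 12.0 and 28.2. *Polrmt*, the mitochondrial RNA polymerase, had 6.19, 3.76 and 10.7 CPM, and *Myc* 74.2, 189 and 43.9. Of the regulators past the minimum, none of 8 was higher and 5 lower at d8, 3 of 8 higher and 2 lower at d12, 5 of 10 higher and 1 lower at d20 against d0, and 4 of 10 higher and 1 lower from d12 to d20, the last again near the share of all genes. No gene encoded by mitochondrial DNA is in the table used here, so the partners of these subunits made inside the organelle were not analysed here.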

How the data were processed

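The deposited table holds counts: whole numbers of UMIs per gene and cell, which the authors obtained by splitting reads by cell barcode, trimming, aligning to the mm9 transcriptome and collapsing duplicates by UMI. The aligner and the strand setting are not given in the sources used here. Cells were picked by hand and no doublet caller was run. ERCC spike-ins (92 rows) and 4 rows with repeated symbols were left out of totals. A cell was kept when it had 4000 or more detected genes. CPM were averaged over cells, and log2 differences used a pseudocount of 1 CPM. Since cells carry no batch, no test was made. Intervals are exact Poisson or Clopper-Pearson at 95%, and the limit beside a count of 0 is 3 counts of the total.

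Groups were read from cell names. The symbol rule for members uses no measured value, but it and the lists were proposed with earlier results of these data known. Named members are the 5 largest rises and falls of each of 4 comparisons, paralog sets and core subunits, and of each list the 3 largest moves (d20 against d12), with a few regulators and carriers added after their values were seen. The remarks on odd days and number ranges, single members named there, the 100 CPM minimum and the window of 100000 to 300000 UMIs were chosen after values were seen. Scalings were TMM (edgeR 4.0.16) and median-of-ratios size factors (DESeq2 1.42.0) on summed counts per group. Gene positions are from GENCODE M1 on NCBIM37. Python 3.11.15, pandas 2.3.3 and scipy 1.17.1 were used, and the calls were tested on simulated data. Some values that enter the counts are not reported here.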

Additional observations from a re-analysis of the deposited data

How the results depend on the processing

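No paired analysis was possible because cell names do not give the batch. Depth was lowest at d20. Counting error is small beside the spread between cells, and the spread between batches is unknown, since no alternative measures it. Of the alternatives for sums and counts of calls, 77 were labelled as the same, 61 as moved and 10 as reversed. The limits behind these labels are not given here, and the label of the same does not mean an identical number. The cause was not tested.

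For d8 against d0 the log2 ratio of the sum, 0.26, was 0.25 with all deposited cells, 0.33 with cells of at least 6000 genes, 0.28 from pooled UMIs, 0.20 with TMM factors, 0.19 with size factors, 0.27 after thinning, 0.27 and 0.26 in cells numbered 1 to 48 and above 48, 0.22 in the window of 100000 to 300000 UMIs, and −0.67 per ERCC UMI. For d12 against d0, −0.02, it was in the same order 0.0108, 0.0269, 0.0142, 0.166 and 0.155, then 0.0142 and −0.0645 by number, 0.0031 in the window and −2.02 per ERCC UMI. For d20 against d0, 0.56, it was 0.50, 0.50, 0.59, 0.30, 0.41, 0.55, 0.57 and 0.57, 0.51, and −2.21 per ERCC UMI. For d20 against d12, 0.58, it was 0.49, 0.48, 0.14 (TMM), 0.26 (size factors), 0.57 (thinned), 0.56 and 0.64 by number, 0.51, and −0.20 per ERCC UMI.

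Counts of members moved as follows. Per ERCC UMI, 2 were higher and 51 lower at d8 than d0, 1 and 73 at d12 than d0, 0 and 73 at d20 than d0, and 2 and 14 at d20 than d12, where 67.0%, 91.0%, 97.7% and 50.2% of all genes were lower. At a 2-fold limit, 6 of 75 were higher at d8, 3 of 77 at d12, 12 of 76 at d20 than d0 and 14 of 78 at d20 than d12. Of all genes, 17.6%, 18.9%, 22.1% and 30.7% were higher, in each case a larger share than of the members. At this limit 0 members were lower at d8 and 0 at d12, where 14.3% and 19.1% of all genes were. With TMM factors, 4 were lower at d12 (25.6% of all genes were). At d20 than d0 19 were higher and 2 lower (25.8% and 32.4% of all genes), and at d20 than d12 14 and 7 (28.9% and 37.9%). With size factors, 4 were lower at d12 (25.9% of all genes were). At d20 than d12 20 were higher (25.6%, beside 32.5% of all genes) and 5 lower (6.41%, beside 34.9%). Lower members at d8 numbered 2 with all cells, with 6000 genes, from pooled UMIs and in numbers 1 to 48, 8 in the window and 4 with no minimum. At d20 against d0 they numbered 1 with all cells and above 48, 4 in the window and 3 with no minimum. At d20 against d12 there were 0 at 100 CPM, where 27% of all genes were lower. In the main setting 25.5% of all genes were lower at d8 and 25% at d20 than d0. The shares of all genes under the other settings are not given here.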
